A study of Mus musculus with 20 samples.

Results

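The genes followed through the 20 libraries of the study were *Zfp57* and 9 imprinted genes of growth control, *H19*, *Igf2*, *Igf2r*, *Meg3*, *Dlk1*, *Peg3*, *Plagl1*, *Cdkn1c* and *Grb10*. They are 10 of the 45705 genes of the deposited table and were chosen by name, with the level of *Zfp57* in 1 batch as the reason to set the others beside it. The study sorted cells from the periventricular zone of Swiss Webster mouse pups at postnatal day 5 by the surface antigens CD133, LeX (CD15), CD140a and NG2. It compared 4 kinds of neural progenitor, BNAP/GRP1, GRP2/MP3, GRP3 and PFMP, with the neural stem cells (NSC), which were gated as carrying CD133 and LeX but neither NG2 nor CD140a. Each of the 5 populations had 4 libraries, 1 from each of batches 1 to 4, and a library is called by its population and its batch (NSC 3, for example). No animal carried a transgene, an allele or a treatment in any group, the pups of a litter were pooled with both sexes together, and the polyadenylated RNA was amplified before sequencing. Values are RPKM, reads scaled to the length of the gene and the size of the library, and differences are of mean log2(RPKM + 1).

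An imprinted gene is, as a rule and not in every tissue, read from only the maternal or only the paternal chromosome. The choice is held by DNA methylation at a control region set in the germ line. ZFP57 is a zinc finger protein with a KRAB domain that binds a methylated hexamer in such regions and, through TRIM28, keeps them methylated after fertilisation. Several of the genes under this control set growth in opposite directions: IGF2 is a fetal growth factor, IGF2R removes it from the cell surface, CDKN1C (p57) holds back the cell cycle and GRB10 dampens signalling of the insulin and IGF1 receptors. In the postnatal stem cell niche of the forebrain, imprinted genes such as *Igf2*, *Dlk1* and *Cdkn1c* are known regulators of stem cell maintenance.

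In GRCm38 *Zfp57* is at chr17:37001163-37010635 and *Igf2r* at chr17:12682406-12769664. *H19* (chr7:142575529-142578143), *Igf2* (chr7:142650766-142666816) and *Cdkn1c* (chr7:143458339-143461050) share the distal end of chromosome 7, while *Peg3* (chr7:6703892-6730431) is at its other end. *Dlk1* (chr12:109452823-109463336) and *Meg3* (chr12:109541001-109571726) are neighbours, and *Plagl1* (chr10:13060504-13131694) and *Grb10* (chr11:11930508-12038683) stand alone.

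Because ZFP57 recognises the letters TGCCGC, the 250 bases before each RefSeq start (GRCm38.p6) were searched for this hexamer on both strands. Promoter entries were found for 8 of the 10 genes, in 15 windows, and 2 of the 15 held it, against 8.68% of the 32851 windows of all genes. The 2 windows that held it are printed here with a window of *Zfp57* itself, which ends at the annotated start of the gene and held no match. Capitals mark the hexamer, which reads GCGGCA on the strand printed. All 3 are written on the plus strand, which is the strand of each gene. In GENCODE vM21 the *Meg3* and *Zfp57* windows lie outside the gene, while the *Plagl1* window lies within it, before an internal start. The *Plagl1* sequence is given without the 44 bases of the window annotated as UTR, and 97 of the 206 bases printed lie in exons of other transcripts of the gene.
Plagl1, chr10:13090582-13090787: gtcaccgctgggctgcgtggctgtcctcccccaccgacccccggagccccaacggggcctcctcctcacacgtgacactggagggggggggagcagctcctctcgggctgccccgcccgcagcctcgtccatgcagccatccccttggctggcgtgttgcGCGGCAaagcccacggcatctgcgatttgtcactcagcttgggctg
Meg3, chr12:109540746-109540995: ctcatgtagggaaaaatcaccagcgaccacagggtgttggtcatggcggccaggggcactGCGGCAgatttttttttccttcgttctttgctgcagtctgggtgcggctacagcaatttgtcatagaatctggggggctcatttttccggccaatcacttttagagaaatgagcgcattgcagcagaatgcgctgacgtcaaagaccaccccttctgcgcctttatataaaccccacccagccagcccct
Zfp57, chr17:37000913-37001162: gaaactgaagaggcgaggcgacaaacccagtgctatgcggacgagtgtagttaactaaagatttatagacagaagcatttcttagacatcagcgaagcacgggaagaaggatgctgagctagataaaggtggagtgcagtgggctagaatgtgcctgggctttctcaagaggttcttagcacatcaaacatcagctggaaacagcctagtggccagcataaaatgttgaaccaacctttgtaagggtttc
The whole *Plagl1* window held 19 CpG dinucleotides, the *Meg3* window 10 and the *Zfp57* window 6, and the median over all windows was 6. A match is a description of these letters only, since neither methylation nor binding was measured.

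The batches differed from each other more than the populations did, and this touches every value below. Taking the variance of log2(RPKM + 1) apart, batch took between 44.1% (*Plagl1*) and 94.1% (*Zfp57*) for the 10 genes and population between 1.21% (*Zfp57*) and 27.4% (*Plagl1*). For the median gene tested these shares were 43.9% and 14.3%. The 5 libraries of batch 3 were close to one another (Pearson r of 0.940 to 0.970 over all genes) and low in neural markers: 9 neuroblast markers summed to at most 8.91 RPKM, against at least 24.6 in the other batches. Erythroid markers summed there to between 228440 and 252653 RPKM, against at most 26515 elsewhere. Alveolar macrophage markers summed to between 968 and 1135, against at most 85.2, and lung epithelium markers to between 854 and 976, against at most 45.8. Of the lung list, *Sftpc* alone did not separate the batch: it read 5.91 (PFMP 3) to 12.1 RPKM (NSC 3) there and 7.57 in BNAP/GRP1 4. In batch 4 the libraries other than PFMP 4 listed 82.8% to 86.8% of all genes above 0, against 44.0% to 70.0% in the 16 other libraries, and BNAP/GRP1 4 was the highest of the 20 libraries for 48.6% of the genes tested. Ependymal markers were found in the NSC libraries in every batch, with sums of 1106 to 12384 RPKM against at most 521 in any progenitor library. Read totals are not in the table, and low values put the depth of the libraries, very roughly, at 0.0206 (BNAP/GRP1 4) to 1.43 (BNAP/GRP1 3) of that of BNAP/GRP1 1, so values carry no counting interval, and 0 RPKM says only that a gene was listed at 0.

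*Zfp57* was close to 0 in batches 1 to 3 and high in batch 4, in all 5 populations. In batch 4 it read 489 RPKM in GRP3 4, 317 in PFMP 4, 244 in GRP2/MP3 4, 63.8 in NSC 4 and 59.7 in BNAP/GRP1 4. In the 15 other libraries it lay between 0 and 4.17 RPKM, with only BNAP/GRP1 2, at 4.17, above 1 RPKM. The groups do not overlap, and the lowest batch 4 library stood 14.3-fold above the highest of the others. These levels were a reason for choosing the gene, and the study named it as a transcription factor of BNAP/GRP1 on these libraries, so they are given as a description with no test.

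Among all genes tested, 2.87% (792 of 27614) likewise had all 5 batch 4 libraries above the other 15. Of these genes, 98 were listed at 0 in all 15 other libraries, and of the rest 8 showed a larger ratio than *Zfp57* between the lowest batch 4 library and the highest other one. Within its library, *Zfp57* was above 95.1% of all genes in BNAP/GRP1 4, 96.2% in NSC 4, 98.9% in GRP2/MP3 4, 99.2% in PFMP 4 and 99.6% in GRP3 4. PFMP 4, with *Zfp57* at 317 RPKM, listed 52.7% of genes above 0, with a median of 0.00791 RPKM over all genes. In BNAP/GRP1 4, with *Zfp57* at the lowest level of batch 4, that median was 8.30 RPKM. The part of such library traits in the *Zfp57* levels was not tested.

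**Figure D1:**
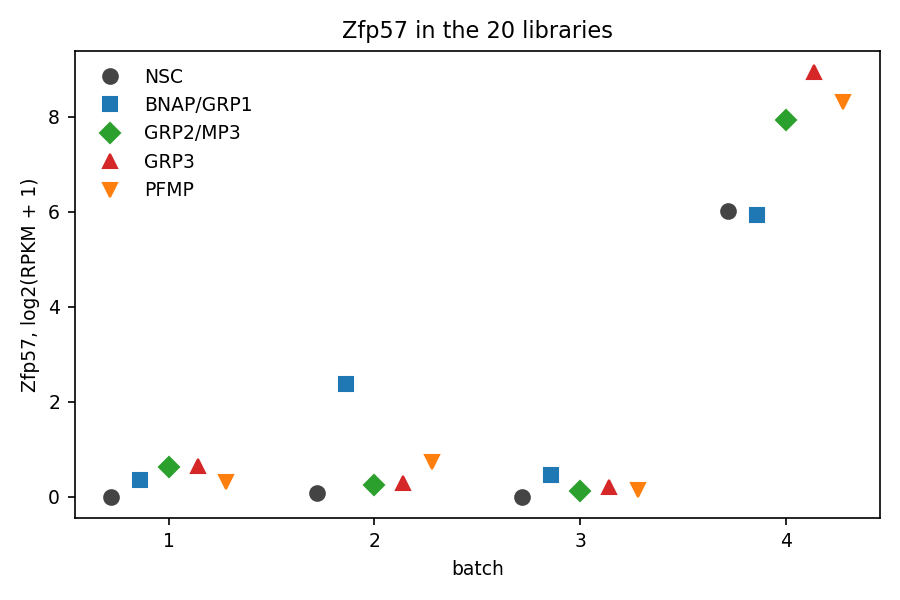
*Zfp57* as log2(RPKM + 1) (y axis) in the 4 batches (x axis), 1 point for each of the 20 libraries, with colour and shape giving the population. The 5 libraries of batch 4 lie above all 15 others, and BNAP/GRP1 2 is the highest of the rest at 4.17 RPKM.

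Against NSC, the order of *Zfp57* depended on the batch. NSC was the lowest population in batch 1 (0 RPKM), batch 2 (0.0563) and batch 3 (0), where BNAP/GRP1 read 0.281, 4.17 and 0.370. In batch 4 NSC read 63.8 RPKM and BNAP/GRP1 59.7, so that the direction was the opposite there. GRP2/MP3, GRP3 and PFMP were above NSC in all 4 batches, which held for 4.76%, 8.31% and 5.75% of genes tested, but outside batch 4 their highest value was 0.665 RPKM (PFMP 2). The mean differences from NSC were 0.99 for GRP3, 0.85 for PFMP, 0.75 for BNAP/GRP1 and 0.71 for GRP2/MP3, each with an SE of 2.22. Without its own batch 4 library each of the 4 differences turned negative, at -1.19 in GRP2/MP3, -1.15 in GRP3, -1.13 in PFMP and -0.46 in BNAP/GRP1, and without NSC 4 they came to between 2.21 and 2.49.

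The other 9 genes did not follow *Zfp57* into batch 4. None had all 5 batch 4 libraries above the other 15 or below them (1.02% of genes were all below). With population held constant, 1 of the 9 differed from batches 1 and 2 in batch 4 in limma's moderated test at an adjusted p under 0.05, while 44.6% of all genes did, 37.4% higher and 7.25% lower. This gene was *Grb10*, the adaptor that dampens insulin and IGF1 receptor signalling, which fell by 1.15 (SE 0.45, adjusted p = 0.044). Its batch 4 values were 17.1 RPKM in BNAP/GRP1 4, 6.28 in GRP3 4, 5.55 in GRP2/MP3 4, 5.04 in NSC 4 and 3.54 in PFMP 4, and in batches 1 and 2 it ran from 6.85 to 46.3. All but BNAP/GRP1 4 thus lay below that whole range. The call was lost on leaving out any of 12 single libraries, with an adjusted p between 0.052 and 0.16: BNAP/GRP1 3, GRP2/MP3 2, 3 and 4, GRP3 1, 2 and 4, PFMP 1, 3 and 4, and NSC 1 and 4.

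*H19*, the maternally expressed long noncoding RNA next to *Igf2*, and *Dlk1*, a membrane protein related to Notch ligands, were each highest in BNAP/GRP1 4, the library that was highest for 48.6% of genes. *H19* read 15.04 RPKM in BNAP/GRP1 4 and 12.01 in NSC 4, and between 1.02 and 2.96 in the 3 other batch 4 libraries, which overlap the 1.06 to 3.79 of batches 1 and 2. *Dlk1* read 11.5 RPKM in BNAP/GRP1 4, 2.59 to 3.05 in NSC 4, GRP2/MP3 4 and GRP3 4, and 0.0424 in PFMP 4, against 0.385 to 2.84 in batches 1 and 2. Their differences in batch 4 were 0.95 (SE 0.42, adjusted p = 0.069) and 0.85 (SE 0.41, adjusted p = 0.099), beside a median of 0.74 over all genes tested. Without PFMP 4 both passed the threshold, at 1.26 (adjusted p = 0.021) for *H19* and 1.27 (adjusted p = 0.011) for *Dlk1*, and *H19* also passed it without GRP3 1 or GRP3 4. The 6 other genes had batch 4 differences between -0.13 (*Plagl1*) and 0.59 (*Cdkn1c*), with an adjusted p of at least 0.18.

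**Figure D2:**
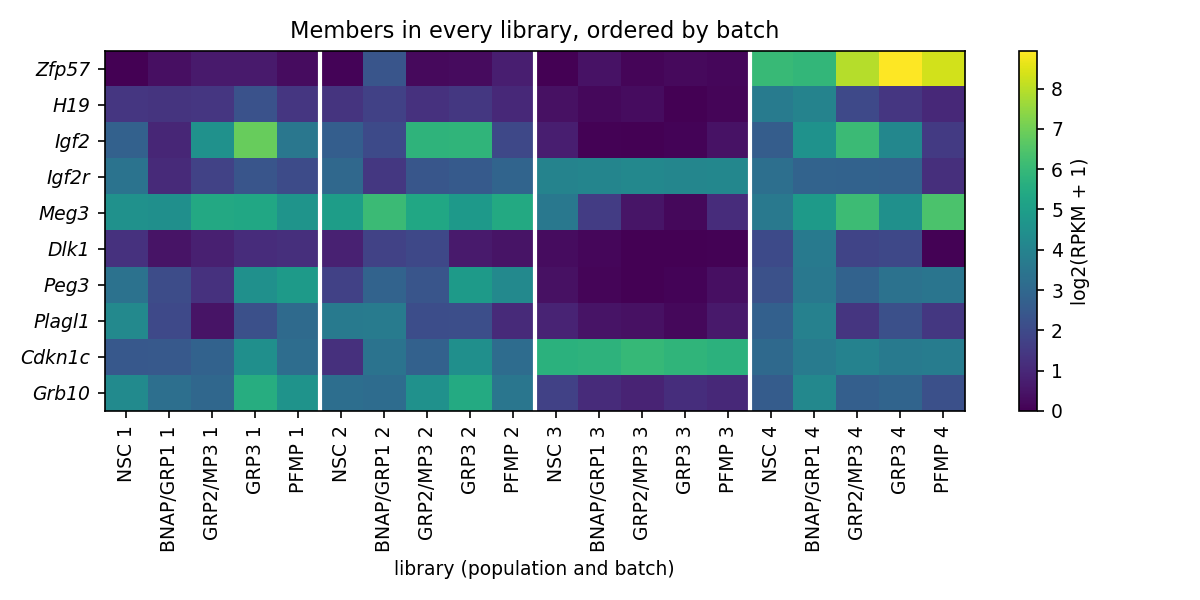
log2(RPKM + 1) of the 10 genes (rows) in the 20 libraries (columns, ordered by batch, with white lines between batches), from dark for 0 to yellow for the highest. *Zfp57* is high in the 5 libraries of batch 4, and in batch 3 *Cdkn1c* and *Igf2r* are high while most other rows are dark.

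Batch 3 separated the 9 genes into those that were low and a pair that was high. In the same test, 8 of the 9 differed from batches 1 and 2, 2 higher and 6 lower, while 28.8% of all genes tested did, 13% higher and 15.8% lower. The median difference over all genes was -0.29. The 6 that fell were *Meg3*, *Igf2*, *Peg3*, *Grb10*, *Plagl1* and *H19*, and the 2 that rose were *Cdkn1c* and *Igf2r*.

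*Cdkn1c*, the cell cycle inhibitor, read 61.8 RPKM in GRP2/MP3 3, 56.2 in GRP3 3, 53.9 in BNAP/GRP1 3, 53.2 in PFMP 3 and 51.6 in NSC 3. In the 15 libraries of the other batches it ran from 1.34 to 21.0 RPKM. It rose by 2.77 on the log2 scale (SE 0.35, adjusted p = 8.76e-06), and the groups do not overlap. *Igf2r*, the receptor that takes up IGF2, read 16.9 RPKM in GRP2/MP3 3, 16.6 in PFMP 3, 16.3 in GRP3 3, 15.8 in BNAP/GRP1 3 and 15.03 in NSC 3, against 1.10 to 9.68 elsewhere. Its difference was 1.81 (SE 0.37, adjusted p = 0.0010). Of all genes tested, 5.18% had every batch 3 library above the other 15. For both genes the spread within batch 3 was small, with an SD of 3.99 RPKM around a mean of 55.3 for *Cdkn1c* and of 0.724 around 16.1 for *Igf2r* (n = 5).

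*Meg3*, a maternally expressed long noncoding RNA, showed the largest fall, 3.70 (SE 0.52, adjusted p = 2.5e-05). It read 2.02 RPKM in BNAP/GRP1 3, 1.19 in PFMP 3, 0.405 in GRP2/MP3 3 and 0.132 in GRP3 3, but 11.1 in NSC 3, next to the 11.2 to 83.4 of the other batches. The NSC library thus kept the highest level of batch 3, and the groups only just do not overlap. *Igf2* fell by 3.44 (SE 0.68, adjusted p = 0.00076), from 0.967 to 116 RPKM elsewhere to at most 0.670 RPKM (NSC 3). *Peg3*, a paternally expressed zinc finger gene, fell by 3.00 (SE 0.46, adjusted p = 5.93e-05), with at most 0.320 RPKM in batch 3 and at least 1.41 elsewhere. *Grb10* fell by 2.87 (SE 0.45, adjusted p = 7.02e-05), from at least 3.54 RPKM to at most 2.32. With *H19*, which read 0 to 0.307 RPKM in batch 3 and at least 1.02 elsewhere, these are 5 genes with all batch 3 libraries below the other 15, as for 6.97% of genes tested.

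*Plagl1*, a paternally expressed zinc finger transcription factor, fell by 1.96 (SE 0.47, adjusted p = 0.0036) to between 0.147 and 0.846 RPKM, and overlapped the other batches only through the 0.402 RPKM of GRP2/MP3 1. The difference for *H19* was -1.27 (SE 0.42, adjusted p = 0.027), and the call was lost without BNAP/GRP1 3, GRP3 1, GRP3 3 or NSC 3 (adjusted p of 0.055 to 0.097). *Dlk1* was at 0 to 0.216 RPKM in batch 3, with a difference of -0.95 (SE 0.41, adjusted p = 0.097), and passed the threshold without BNAP/GRP1 1, BNAP/GRP1 4 or PFMP 4 (adjusted p of 0.031 to 0.048). The batch 3 values moved together with the summed erythroid, lung and macrophage markers given above and with the low neural markers. The part of these markers in the result was not tested. In bulk RNA, fewer cells of a type and less RNA per cell cannot be told apart, and each batch was a single experiment.

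**Figure D3:**
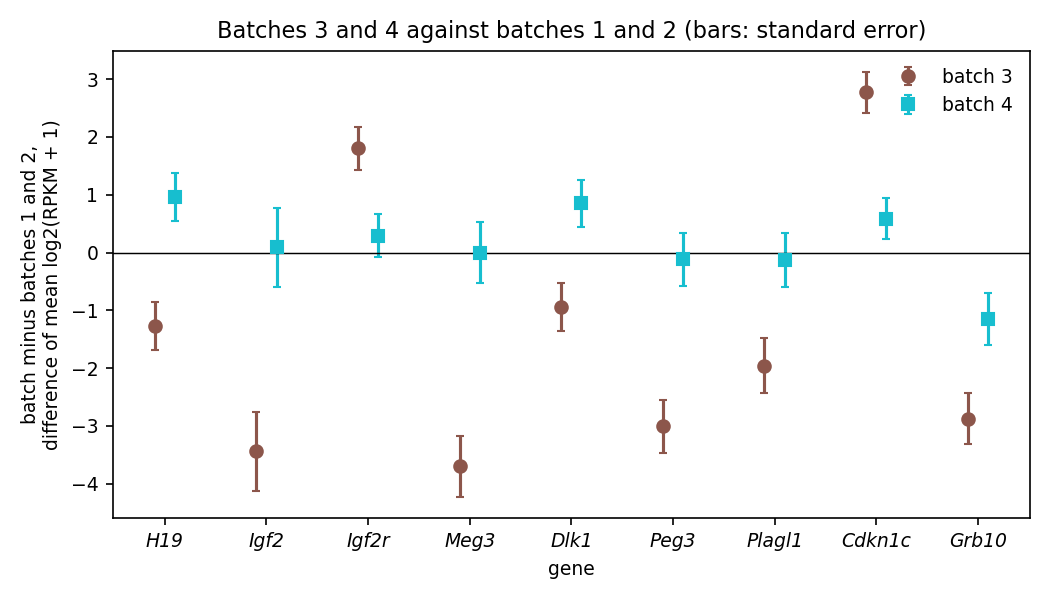
Difference of mean log2(RPKM + 1) between batch 3 (brown circles) or batch 4 (cyan squares) and batches 1 and 2, for the 9 genes tested, with population held constant; bars are the standard error. In batch 3 *Igf2r* and *Cdkn1c* lie above 0 (1.81 and 2.77) and the other 7 below, while in batch 4 the values lie between -1.15 and 0.95.

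Between the populations, none of the 9 genes passed the threshold in any of the 4 contrasts with NSC. Of all 27614 genes tested, 1.14% did in PFMP (0.00362% higher and 1.14% lower), 1.12% in GRP2/MP3 (0% higher), 1.05% in GRP3 (0.0109% higher and 1.04% lower) and 0.76% in BNAP/GRP1 (0% higher). At an unadjusted p under 0.05 there was 1 among the 36 comparisons, *Plagl1* in GRP2/MP3, where the share of all genes was 5.79% (5.88% in PFMP, 5.62% in GRP3 and 5.9% in BNAP/GRP1). With the batch as a term in the model (the replicate block), which raised the share of genes called to 2.09% in BNAP/GRP1, 2.6% in GRP3, 2.79% in PFMP and 3.08% in GRP2/MP3, the 9 genes again gave 0 calls, with a lowest adjusted p of 0.10 (*Cdkn1c* in GRP3). The standard errors of 0.71 to 1.37 without the block leave room for differences of several fold, so the missing calls do not show that the levels were alike.

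*Igf2*, the fetal growth factor, was the gene with the widest range between populations. In NSC it read 5.89, 5.44, 0.670 and 5.16 RPKM in batches 1 to 4. In GRP2/MP3 it read 22.2, 55.2, 0.00624 and 67.0, and in GRP3 116, 56.9, 0.0674 and 16.8. Both were thus above the NSC library in batches 1, 2 and 4 and below it in batch 3, and 8.55% and 21.5% of genes tested were above NSC in those 3 batches. BNAP/GRP1 read 0.967, 3.05, 0.0400 and 22.8 RPKM and was above NSC only in batch 4. PFMP read 10.7, 2.86, 0.361 and 1.88 RPKM and was above NSC only in batch 1. By median the order was GRP2/MP3 (38.7), GRP3 (36.8), NSC (5.30), PFMP (2.37) and BNAP/GRP1 (2.01), and no neighbours in it differed beyond their spread. The differences from NSC were 1.902 in GRP2/MP3 and 2.03 in GRP3 (SE 1.37, adjusted p = 1), and -0.30 and -0.34 in BNAP/GRP1 and PFMP. With a library or batch left out they ran from 1.24 to 3.27 in GRP2/MP3 and from 1.16 to 3.42 in GRP3, the highest being those without GRP2/MP3 3 and GRP3 3. In batches 1 and 2 alone, a choice made after seeing the data, *Igf2* was 3.63 above NSC in GRP3 (SE 0.74, adjusted p = 0.046). The share of all genes called in that fit was not counted.

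Markers of other cell types were set beside *Igf2*. Fibroblast and meningeal markers (5 genes) summed to 75.3, 74.8 and 84.9 RPKM in GRP3 of batches 1, 2 and 4, against 11.2, 14.3 and 13.3 in NSC, and *Col1a1* was detected in every library. In GRP2/MP3 they came to 15.1, 16.7 and 53.9, in PFMP to 21.2, 5.52 and 10.98 and in BNAP/GRP1 to 1.60, 6.23 and 49.4. In these 3 batches the sum and *Igf2* lay on the same side of NSC in 12 of 12 progenitor libraries, which share the 3 NSC libraries. The share of all genes that did so was not counted. *Col1a1* alone lay on the other side of NSC from *Igf2* in some of them. It was below NSC in GRP2/MP3 2 (0.0826 RPKM against 0.212) and GRP2/MP3 4 (1.47 against 1.55). In BNAP/GRP1 1 (0.0241 against 0.0154) and PFMP 2 (0.703 against 0.212) it was above NSC. Within GRP3 the highest sum went with the lowest *Igf2* (16.8 RPKM). Pericyte markers (6 genes) summed to 509, 448 and 7332 RPKM in GRP2/MP3 of those batches, against 3.44, 14.0 and 112 in NSC. They lay on the same side of NSC as *Igf2* in 9 of the 12 libraries: in BNAP/GRP1 1 and 2 the sum was above NSC (8.45 and 40.1) and *Igf2* below it, and in GRP3 4 the sum (85.2) was below NSC and *Igf2* above it. *Foxc1*, a transcription factor of meninges and pericytes, was the gene with the second highest correlation with *Igf2* (r = 0.900), after *Gfra2* (r = 0.919). The part of such cells in the *Igf2* levels was not tested. In batch 3 the fibroblast sums were 38.9 to 48.5 RPKM while *Igf2* was at most 0.670, and the sum was on the same side of NSC as *Igf2* in 1 of 4 libraries.

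*Cdkn1c* was above the NSC library of its batch in all 4 progenitors and all 4 batches. This held for 4.76% of genes in GRP2/MP3, 5.75% in PFMP, 8.31% in GRP3 and 9.35% in BNAP/GRP1, and the 4 contrasts share the same NSC libraries. NSC read 4.47, 1.34, 51.6 and 7.22 RPKM in batches 1 to 4. GRP3 read 21.0, 20.8, 56.2 and 11.99, the highest of the populations in batches 1 and 2 but not in batches 3 and 4. BNAP/GRP1 (4.58, 9.63, 53.9 and 12.04), GRP2/MP3 (6.02, 5.84, 61.8 and 14.7) and PFMP (8.25, 8.02, 53.2 and 12.4) lay between NSC and GRP3 in batches 1 and 2 and just above GRP3 in batch 4. In batch 3 only GRP2/MP3 was above GRP3. The differences were 1.504 in GRP3, 0.86 in PFMP, 0.78 in GRP2/MP3 and 0.74 in BNAP/GRP1 (SE 0.94, adjusted p of 0.87 to 1), and with a library or batch left out that of GRP3 ran from 0.88 to 2.37. In batches 1 and 2 alone, again chosen after seeing the data and with no count over all genes, the difference in GRP3 was 2.62 (SE 0.50, adjusted p = 0.036).

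*Plagl1* read lower in GRP2/MP3, GRP3 and PFMP than in NSC, with no contrast past the threshold. NSC read 17.5, 11.9, 0.846 and 5.66 RPKM in batches 1 to 4, and GRP2/MP3 read 0.402, 3.30, 0.310 and 1.63. GRP3 read 3.57, 3.48, 0.147 and 3.50, and PFMP 7.46, 1.09, 0.544 and 1.74. These 3 progenitors were below NSC in all 4 batches, as 12%, 9.07% and 12.3% of genes were. BNAP/GRP1 was near NSC in batch 2 (12.1 RPKM) and above it in batch 4 (14.3), with 2.92 and 0.377 in batches 1 and 3. The difference from NSC was -1.79 in GRP2/MP3 (SE 0.86, unadjusted p = 0.050, adjusted p = 0.86, and adjusted p = 0.15 with the block), -1.32 in PFMP, -1.20 in GRP3 and -0.36 in BNAP/GRP1.

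**Figure D4:**
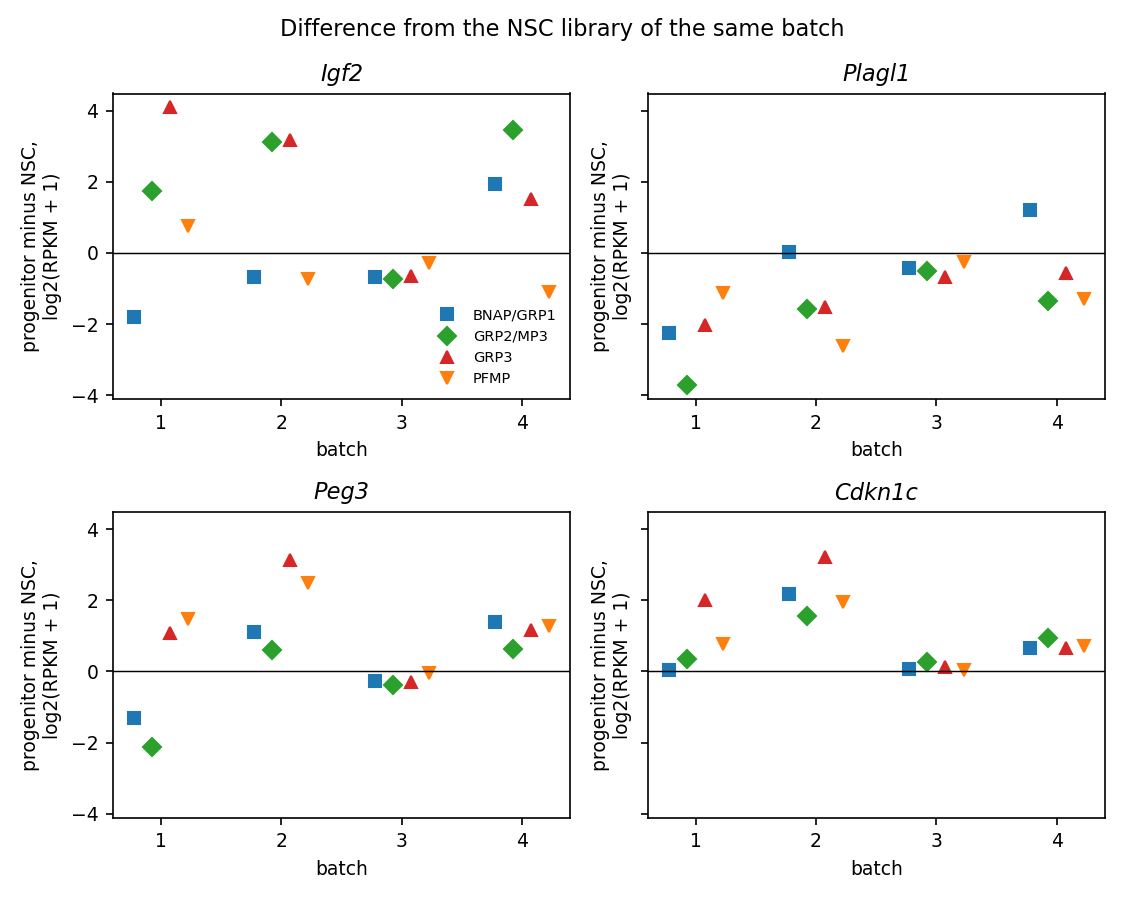
Difference in log2(RPKM + 1) between each progenitor library and the NSC library of the same batch (y axis) by batch (x axis), for *Igf2*, *Plagl1*, *Peg3* and *Cdkn1c*, 1 point for each library. *Igf2* in GRP2/MP3 and GRP3 and *Peg3* in GRP3 and PFMP are above 0 in batches 1, 2 and 4, and *Cdkn1c* is above 0 throughout. In batch 3 the values run from -0.73 (*Igf2* in GRP2/MP3) to 0.26 (*Cdkn1c* in GRP2/MP3). *Igf2*, *Plagl1* and *Peg3* are below 1 RPKM there, where the added 1 narrows differences.

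*Igf2r* was highest in NSC outside batch 3. NSC read 9.68, 7.08 and 8.62 RPKM in batches 1, 2 and 4, above every progenitor of its batch, whose values ran from 1.10 (BNAP/GRP1 1) to 6.35 (PFMP 2). The share of genes below NSC in those 3 batches was 9.97% for BNAP/GRP1, 13.3% for GRP3, 17% for GRP2/MP3 and 18.9% for PFMP. In batch 3 the order was turned, with NSC 3 the lowest at 15.03. The differences from NSC were -1.07 in BNAP/GRP1, -0.86 in PFMP, -0.64 in GRP2/MP3 and -0.49 in GRP3 (SE 0.74). *Airn*, the noncoding RNA that runs antisense through *Igf2r*, was listed at 1.02 to 32.6 RPKM. Since the strand used in counting is not given, reads of the overlap cannot be assigned to one of them for certain. The same holds for *Igf2* and the antisense *Igf2os*, listed at 0 to 14.6 RPKM. *Gm49394*, a protein-coding entry that overlaps *Igf2* on the same strand, was not among the genes listed.

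*Peg3* was above NSC in batches 1, 2 and 4 in GRP3 and PFMP, as were 21.5% and 12.7% of genes. GRP3 read 21.2, 28.4 and 9.30 RPKM there and PFMP 27.9, 17.6 and 10.2, against 9.42, 2.35 and 3.62 in NSC. The differences were 1.27 and 1.30 (SE 1.09, adjusted p = 1), with ranges of 0.65 to 2.31 and 0.76 to 2.25 when a library or batch was left out, and in BNAP/GRP1 and GRP2/MP3 0.23 and -0.32. *Grb10* reached 46.3 and 43.0 RPKM in GRP3 of batches 1 and 2, its highest values, where NSC read 18.2 and 8.31. In batch 4 GRP3 read 6.28 and NSC 5.04, and the difference over all batches was 0.81 (SE 1.02, adjusted p = 1). OPC markers (7 genes), at 3497 RPKM in GRP3 at their highest and 2444 in PFMP, were far above the 32.4 reached in NSC, in populations sorted on CD140a.

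*Meg3* read 11.2 to 83.4 RPKM in the 15 libraries outside batch 3. With batch 3 included, its differences from NSC lay between -0.47 (GRP3) and 0.23 (PFMP), with an SE of 1.32, and without batch 3 that of GRP3 was 0.52 with the block. *H19* and *Dlk1* were the lowest of the imprinted genes, and in batches 1 and 2 none of their values passed 3.79 RPKM. *H19* was below NSC in all 4 batches in GRP2/MP3 and PFMP, as 12% and 12.3% of genes were. Its differences were -0.47 and -0.82, most of it from batch 4, where NSC read 12.01 RPKM. In batch 1 both progenitors read 1.65 RPKM against 1.67 in NSC. *Dlk1* was below NSC in all 4 batches in GRP3 and PFMP, as 9.07% and 12.3% of genes were. Its differences were -0.17 and -0.65 (SE 0.71). The microRNA genes within *H19* (*Mir675*) and *Meg3* (*Mir770*) were listed at 0 in all 20 libraries, which hold amplified polyadenylated RNA.

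**Figure D5:**
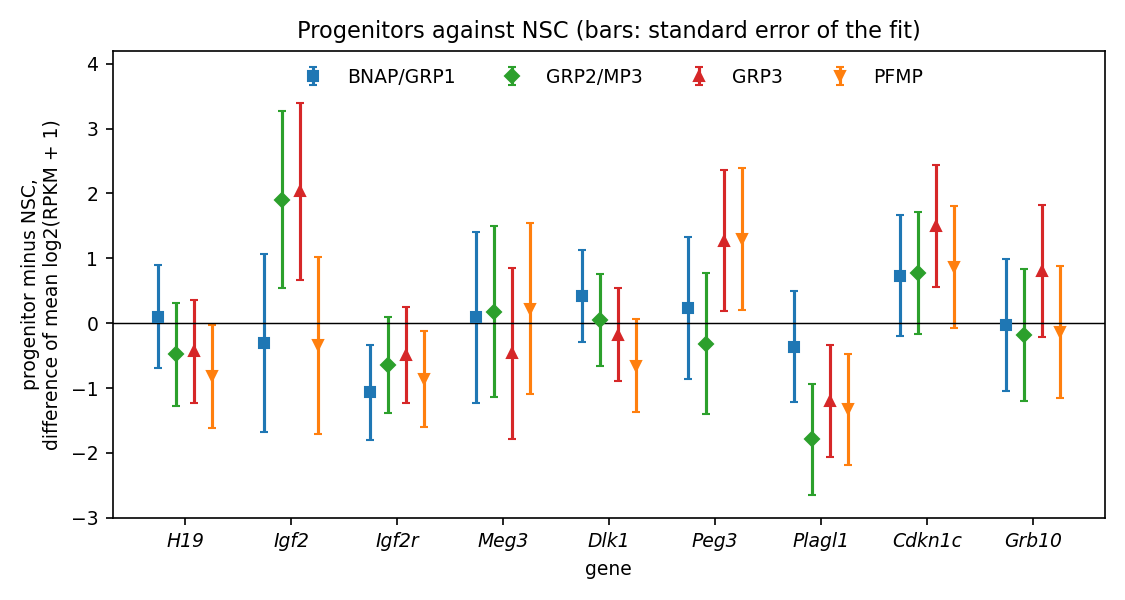
Difference of mean log2(RPKM + 1) between each progenitor and NSC (y axis) for the 9 genes tested (x axis), n = 4 libraries a population; bars are the standard error of the limma model. The points lie between -1.79 (*Plagl1* in GRP2/MP3) and 2.03 (*Igf2* in GRP3), and none passed an adjusted p of 0.05.

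The progenitors were also set against each other in 6 direct contrasts, in which 0% of genes were called (0 of 27614), with or without the block. Among the 9 genes 0 reached an unadjusted p under 0.05, while of all genes 0.304% (GRP3 against PFMP), 1.2% (BNAP/GRP1 against GRP2/MP3), 1.66% (GRP2/MP3 against PFMP), 1.69% (GRP2/MP3 against GRP3), 1.9% (BNAP/GRP1 against GRP3) and 4.91% (BNAP/GRP1 against PFMP) did. The largest differences were those of *Igf2*, which was 2.38 higher in GRP3 than in PFMP (SE 1.37, unadjusted p = 0.097, adjusted p = 1) and differed by -2.34 between BNAP/GRP1 and GRP3 (adjusted p = 0.95).

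Across the 20 libraries, genes of 1 locus did not run closely together once the batch means were taken out. *Igf2* and *H19*, which share enhancers, had a Pearson r of 0.58 (0.23 without the batch means), and *Dlk1* and *Meg3* one of 0.47 (-0.14). *Zfp57* had r between -0.25 (*Igf2r*) and 0.49 (*Dlk1*) with the 9 others, and between -0.66 (*H19*) and 0.39 (*Meg3*) without the batch means. These are descriptions over 20 libraries that share batches, with no p.

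The genes whose pattern was most like that of a member, by Pearson r over the 20 libraries, followed the batches too. For *Zfp57* they were *Slc18a2* (0.987), *Nrg1* (0.986) and *Gm5619* (0.980). *Nrg1*, a growth factor of the neuregulin family, read 12.1 to 69.3 RPKM in batch 4 and at most 1.87 elsewhere. For *Cdkn1c* the first was the chemokine *Ccl17* (0.944), at 45.5 to 76.2 RPKM in batch 3 and at most 9.15 elsewhere, and for *Igf2r* the chemokine receptor *Cxcr4* (0.916), at 101 to 111 RPKM in batch 3 and at most 61.5 elsewhere. For *Meg3* it was *Rbfox3* (0.935), a splicing regulator of neurons, for *Plagl1* *Zic5* (0.939), for *Grb10* *AU022252* (0.965), for *H19* *Palmd* (0.933) and for *Dlk1* *She* (0.963).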

How the data were processed

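RNA from cells sorted from pooled litters was measured in 20 libraries, 4 for each of 5 populations. The authors deposited the values as RPKM for 45705 genes, made with FastQC 0.11.9, cutadapt 3.4, STAR 2.6.1 on GRCm38 and Salmon 1.9.0. The annotation release, the gene lengths, the strand setting and the read totals behind the RPKM are not given in the sources used here. All 20 libraries were used, and 26 columns without values were left out. The study states that experiments of low quality were excluded.

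RPKM were put on a log2(RPKM + 1) scale and not scaled again. A filter kept genes that reached 1 RPKM in 4 or more libraries, and these 27614 genes were tested with limma 3.58.1 in R 4.3.3 (a mean per population, all libraries sharing the spread, eBayes with a trended prior), with Benjamini-Hochberg adjustment over all of them and a threshold of 0.05. All 10 members passed this filter, and *Zfp57* passed it through batch 4. Batches 3 and 4 were compared with the mean of batches 1 and 2 in a model of population and batch. Groups came from the labels. The study calls its replicates independent experiments, with the pups of a litter pooled. In the contrasts of populations, p-values measure the spread between these experiments. In the contrasts of batches they measure how far the batch difference varies among the populations, and not the spread between experiments. The members, lists and tests were chosen with earlier results of these data known. *Zfp57* was not tested. The named genes are the members, the 3 genes of highest mean RPKM in each of 3 lists (since none passed the threshold against NSC) and the 3 genes of highest r with each member, of which the text gives the first (that of *Peg3* is not reported here). Others were named after their values were seen.

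The labels call the replicate number a batch, so the numbers pair the libraries. With population means taken out, the median correlation was 0.337, 0.262, 0.769 and 0.581 within batches 1 to 4 (lowest 0.0341) and -0.254 between batches. The study's methods name no batch term, so the replicate block is an alternative. The others were each library or batch left out, quantile normalization, median-of-ratios scaling, no filter, a mean RPKM of 5 or more, a pseudocount of 0.1, an untrended prior, and a model of the compared populations alone. Chosen after seeing the data were the block without batch 3, batches 1 and 2 alone, and a fit that leaves out the 4 batch 4 libraries with most genes above 0. The steps were tested on simulated data made from these libraries. A log2 shift of 6 was put on 200 of the 27614 genes. For GRP3 against NSC 181 of these and 9 others were called, and for batch 4 192 and 7. The number of wrong calls in the real libraries, which are correlated within batches, was not tested. Positions are those of GENCODE vM21, in which 45142 of the 45705 identifiers were found, and promoters those of RefSeq. Figures were drawn with matplotlib 3.10.9 in Python 3.11.15.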

Additional observations from a re-analysis of the deposited data

Results flagged for a closer look

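In groups of 4 libraries, the gap of a value to the nearest of the others was taken on the log2(RPKM + 1) scale. A value was marked where this gap as a share of the range of the group passed Dixon's 95% critical value. Of the 45 groups (9 genes in 5 populations, *Zfp57* left out because its levels were a reason for choosing it) 4 were marked, where chance marks about 1 in 20, and all 4 are libraries of batch 3. *Igf2* stood apart in NSC 3 (0.670 RPKM, the next 5.16), *Meg3* in GRP2/MP3 3 (0.405, the next 39.4) and in GRP3 3 (0.132, the next 21.3), and *Plagl1* in GRP3 3 (0.147, the next 3.48).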

How the results depend on the processing

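In the replicate block, which rests on the pairing of the libraries by batch, the count of the 9 genes called was 0 in each contrast with NSC and in every direct contrast, as without it. Against NSC it called more over all genes, and in the lists of further imprinted genes and IGF genes, as given beside those counts. The count in batch 3 was 7 to 9 with single libraries left out. The count in batch 4 was 1, became 0 with a mean RPKM of at least 5 and 0 without the 4 batch 4 libraries other than PFMP 4, where batch 4 is that library alone, assumed to vary like the rest, and ran from 0 to 2 with single libraries left out. In batches 1 and 2 alone the count in GRP3 against NSC was 2 in place of 0. The share of all genes called in that fit was not counted, so the 2 cannot be set against a background. In batch 3, the *H19* call was lost under quantile normalization (-0.83, adjusted p = 0.11), and *Dlk1* passed the threshold at a pseudocount of 0.1 (-2.77, adjusted p = 0.0076), with median-of-ratios scaling (adjusted p = 0.050) and without those 4 batch 4 libraries (adjusted p = 0.021). *Grb10* in batch 4 was at -1.81 without those 4 (adjusted p = 0.37) and at an adjusted p of 0.055 with a mean RPKM of at least 5. The causes were not tested. Scaling moved the median difference over all genes in batch 4 from 0.74 to 0.54 (median-of-ratios) and -0.07 (quantile), and in BNAP/GRP1 from 0.38 to 0.27 and 0.09.

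These differences changed sign. At a pseudocount of 0.1 these were *H19* in BNAP/GRP1 (-0.0090), *Meg3* (-0.13) and *Dlk1* (-0.24) in GRP2/MP3, against NSC. With median-of-ratios scaling they were *H19* in BNAP/GRP1 (-0.0011) and *Igf2* in batch 4 (-0.13). With quantile normalization they were *H19* (-0.16), *Peg3* (-0.026) and *Grb10* (0.016) in BNAP/GRP1, *Grb10* in GRP2/MP3 (0.10) and PFMP (0.11), and *Igf2* (-0.0051) and *Igf2r* (-0.29) in batch 4. With the block and without batch 3 they were *Grb10* in BNAP/GRP1 (0.18), GRP2/MP3 (0.047) and PFMP (0.065), and *Meg3* in GRP3 (0.52). In batches 1 and 2 alone they were *Peg3* in BNAP/GRP1 (-0.093), *Grb10* in GRP2/MP3 (0.012) and PFMP (0.30), *H19* (0.48) and *Meg3* (0.34) in GRP3 and *Igf2* in PFMP (0.011). Without the 4 batch 4 libraries they were *Meg3* (-0.30) and *Peg3* (-0.15) in BNAP/GRP1, *Meg3* in GRP2/MP3 (-0.61), *H19* in GRP3 (0.19), and in batch 4, for PFMP 4 alone, *H19* (from 0.95 to -0.27), *Dlk1* (from 0.85 to -0.83), *Igf2* (from 0.09 to -1.60), *Igf2r* (from 0.29 to -1.23) and *Meg3* (from -0.00075 to 1.44).

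With a library or a batch left out, sign changes gave these ranges. In BNAP/GRP1 against NSC they were *Dlk1* -0.29 to 0.86, *Grb10* -0.56 to 0.59, *H19* -0.63 to 0.76, *Igf2* -1.19 to 0.31, *Meg3* -0.52 to 0.98, *Peg3* -0.28 to 0.91 and *Plagl1* -1.02 to 0.33. In GRP2/MP3 they were *Dlk1* -0.31 to 0.43, *Grb10* -0.76 to 0.45, *H19* -0.92 to 0.19, *Meg3* -0.61 to 1.46 and *Peg3* -0.83 to 0.28. In GRP3 they were *Dlk1* -0.51 to 0.13, *H19* -0.88 to 0.23 and *Meg3* -1.01 to 0.71, and in PFMP *Grb10* -0.72 to 0.47, *Igf2* -0.90 to 0.13 and *Meg3* -0.63 to 1.31. In batch 4 they were *Igf2* -0.49 to 0.51, *Meg3* -0.36 to 0.50, *Peg3* -0.37 to 0.050 and *Plagl1* -0.47 to 0.051.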

Other observations

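Other genes of the same biology were counted from 3 lists. Of 47 further imprinted genes 38 were tested, and 0 passed the threshold against NSC in any progenitor. From 0 to 2 reached an unadjusted p under 0.05 in limma's test, as did 5.62% (GRP3) to 5.9% (BNAP/GRP1) of all genes. The median difference of the 38 was 0.20 in BNAP/GRP1 (0.38 over all genes), 0.11 in PFMP (-0.20), -0.06 in GRP2/MP3 (-0.08) and -0.07 in GRP3 (0.05). The replicate block called 1 of the 38 in each progenitor, where it called 2.09% (BNAP/GRP1) to 3.08% (GRP2/MP3) of all genes. *Nnat*, a paternally expressed proteolipid of the developing brain, was the highest by mean RPKM. It was at 1279, 1077, 109 and 586 RPKM in NSC of batches 1 to 4, above every progenitor of its batch. The share of genes below NSC in all 4 batches was 7.68% for BNAP/GRP1, 9.07% for GRP3, 12% for GRP2/MP3 and 12.3% for PFMP. The differences of *Nnat* were -4.16 in GRP2/MP3 (SE 1.62, adjusted p = 0.49), -3.78 in BNAP/GRP1 (adjusted p = 0.75), -2.10 in GRP3 and -1.72 in PFMP.

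In batch 3, 16 of the 38 were lower than in batches 1 and 2 and 2 higher (15.8% and 13% of all genes), with a median of -1.03 beside -0.29. *Nnat* fell by 4.67 (SE 0.63, adjusted p = 1.64e-05) and *Snrpn*, a splicing protein of neurons, by 3.14 (adjusted p = 0.00042), while *Gnas*, which encodes a G protein subunit, was at 1.13 (adjusted p = 0.078). In batch 4, 12 were higher and 2 lower (37.4% and 7.25% of all genes), with a median of 0.65 beside 0.74, and *Snrpn* rose by 4.15 (SE 0.58, adjusted p = 5.87e-05).

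Of 16 IGF ligands, receptors and binding proteins 13 were tested, and 0 passed the threshold against NSC. From 1 to 3 reached an unadjusted p under 0.05 in limma's test, as did 5.62% (GRP3) to 5.9% (BNAP/GRP1) of all genes. *Igf1* was at 3.68 in GRP2/MP3 (SE 1.14, adjusted p = 0.20), *Igfbp2* at -4.22 there (SE 1.49, adjusted p = 0.35) and *Igfbp7* at -3.11 in PFMP (SE 1.12, adjusted p = 0.38). The list median lay between -0.21 (PFMP) and 0.02 (BNAP/GRP1). The block called 1 of the 13 in BNAP/GRP1 and 1 in GRP2/MP3, where it called 2.09% and 3.08% of all genes. Batch 3 held 7 lower and 1 higher (15.8% and 13% of all genes), and batch 4 held 3 higher and 2 lower (37.4% and 7.25% of all genes). *Igfbp2* fell by 3.53 in batch 3 (adjusted p = 0.00043).

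Of 20 genes that maintain imprints 19 were tested, with 0 past the threshold against NSC. In limma's test 0 reached an unadjusted p under 0.05 (5.62% to 5.9% of all genes), and the block called 0 (2.09% to 3.08% of all genes). The list median lay between 0.12 (GRP2/MP3) and 0.30 (GRP3). In batch 4, 7 were higher and 4 lower (37.4% and 7.25% of all genes), among them *Dnmt3a*, a DNA methyltransferase, which rose by 2.20 (SE 0.34, adjusted p = 0.00014), and *Uhrf2*, which fell by 1.15 (SE 0.40, adjusted p = 0.027). *Trim28*, the partner of ZFP57, was at 0.54 (SE 0.34, adjusted p = 0.20). Chosen after its values were seen, *Zfp445*, which encodes another zinc finger protein of imprint maintenance, rose by 2.79 in batch 4 (adjusted p = 1.32e-05) and by 1.83 in batch 3 (adjusted p = 0.00047). The median batch 4 difference of the list was 0.36, beside 0.74 over all genes, and in batch 3 there were 2 higher and 5 lower (13% and 15.8% of all genes).

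Genes within 100 kb of *Zfp57* were also looked at after its values were seen. *Mog*, the myelin gene whose nearer edge lies 108 bases after its end, read 1.18 to 9.39 RPKM in batch 4 and at most 0.603 elsewhere. *Trim31*, *Rnf39*, *Olfr90*, *Olfr91* and *Olfr92* reached up to 5.71, 15.3, 8.23, 12.5 and 18.5 RPKM in batch 4 and at most 0.471 elsewhere. Their lowest batch 4 values were 0, 0.0235, 0, 0.0162 and 0 RPKM. Of these genes only *Olfr91*, listed at 0 elsewhere, did not overlap. The ranges of *Znrd1as*, *2410137M14Rik* and *H2-M5* also overlapped those elsewhere. Of all genes tested, 2.87% had all 5 batch 4 libraries above the other 15, and 37.4% were called higher in batch 4. *Gabbr1*, 35331 bases away, read 19.2 to 34.9 in batch 4 and 2.24 to 90.4 elsewhere. *Ppp1r11*, on the other side, read 17.1 to 160 RPKM in batch 4 and 12.9 to 87.0 elsewhere, and *Znrd1* 8.92 to 44.2 and 41.3 to 200.3.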
